A study of Mus musculus with 12 samples.

Results

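The 9 genes described here encode secreted proteins that support neurons, axons or Schwann cells: Bdnf, Ntf3, Gdnf, Nrg1, Lif, Clcf1, Hgf, Fgf10 and Gdf10. By role they form 5 sets: neurotrophins and GDNF, a neuregulin, interleukin 6 type cytokines, the growth factors Hgf and Fgf10, and a BMP-like factor. They were chosen by name, for the function of their proteins, out of 55335 gene rows counted in each of 12 RNA-seq libraries. Earlier results of these data were known when they were chosen. The cells were fibroadipogenic progenitors (FAPs), mesenchymal cells of the space around muscle fibres, sorted from mouse hindlimb and forelimb muscle as live (7AAD-) cells negative for lineage markers and Vcam and positive for Sca1, then cultured in alpha-MEM with fetal bovine serum. There were 4 groups of 3 libraries. WT cells received ethanol in culture media batches A, B and C. Bap1KO cells received 4-hydroxytamoxifen (4-OHT) at 1 µM to delete Bap1, the gene of a nuclear deubiquitinase, in the same 3 batches. Smn1OE cells were given 4-OHT plus a vector encoding human SMN, and Smn1OE_K186R cells received 4-OHT and a vector for SMN carrying K186R, a lysine to arginine change, both in media batches D, E and F. The treatment text names Rosa-CreER as the driver of the deletion, whereas the source labels of the 3 groups given 4-OHT name Prrx1Cre;Bap1f/f mice. Serum percentage was the same in all 4 groups. A timed medium change is recorded for the 3 groups given 4-OHT, and not for WT. The groups analysed here included neither an empty vector nor 4-OHT without the deletion. The labels do not say whether libraries of a group came from separate animals, so the p-values measure the spread between these libraries, which may be technical.

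Each of these ligands acts on nearby cells through a receptor at the cell surface. BDNF and neurotrophin 3 bind Trk receptor kinases and the p75 receptor, and GDNF signals through a GFRα co-receptor and the RET kinase; these ligands keep motor and sensory neurons alive. Neuregulin 1 binds ErbB receptors and governs Schwann cell survival and myelination. LIF and cardiotrophin-like cytokine factor 1 signal through the gp130 chain with LIFR, the latter ligand also needing a ciliary neurotrophic factor receptor. HGF activates the Met kinase, FGF10 acts mainly on an isoform of FGFR2, and GDF10 (also called BMP3b) belongs to the TGF-β superfamily. FAPs are known as a source of paracrine signals for muscle and for the neuromuscular junction.

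Promoters are shown for 4 genes, because Gdf10, Hgf and Fgf10 were lower, and Bdnf higher, in Smn1OE than in WT. RefSeq (GRCm38.p6) gave promoters for 7 of the 9 genes, with 16 start sites in all, of which Bdnf had 7. Nrg1 and Clcf1 had no entry. In GRCm38 the genes of these 4 windows span chr14:33923587-33937983 (Gdf10, counted as ENSMUSG00000021943), chr13:118669791-118792115 (Fgf10, ENSMUSG00000021732), chr5:16553495-16620152 (Hgf, ENSMUSG00000028864) and chr2:109674700-109727007 (Bdnf, ENSMUSG00000048482), all on the plus strand. Each printed run is the 250 bases before a start site, on the plus strand. Capitals mark a GC box (GGGCGG) or the core of a cAMP response element (TGACG), read on both strands. The windows are chr14:33923337-33923586 for Gdf10, chr13:118714449-118714698 for Fgf10, chr5:16553245-16553494 for the first Hgf start and chr2:109692186-109692435 for the third Bdnf start.
Gdf10: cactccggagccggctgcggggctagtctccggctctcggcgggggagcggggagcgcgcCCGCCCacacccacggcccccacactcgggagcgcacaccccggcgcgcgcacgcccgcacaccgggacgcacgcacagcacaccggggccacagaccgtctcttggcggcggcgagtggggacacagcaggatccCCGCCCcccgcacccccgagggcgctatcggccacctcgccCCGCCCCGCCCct
Fgf10: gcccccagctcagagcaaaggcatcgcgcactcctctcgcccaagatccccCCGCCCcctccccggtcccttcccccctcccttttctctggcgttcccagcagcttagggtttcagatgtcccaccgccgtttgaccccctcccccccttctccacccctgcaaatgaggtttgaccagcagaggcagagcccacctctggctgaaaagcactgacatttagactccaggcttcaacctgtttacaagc
Hgf: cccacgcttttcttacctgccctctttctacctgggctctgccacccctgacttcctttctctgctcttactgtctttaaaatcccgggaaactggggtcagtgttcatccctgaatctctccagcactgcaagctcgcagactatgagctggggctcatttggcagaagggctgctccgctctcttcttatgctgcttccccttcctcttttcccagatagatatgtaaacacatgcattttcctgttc
Bdnf: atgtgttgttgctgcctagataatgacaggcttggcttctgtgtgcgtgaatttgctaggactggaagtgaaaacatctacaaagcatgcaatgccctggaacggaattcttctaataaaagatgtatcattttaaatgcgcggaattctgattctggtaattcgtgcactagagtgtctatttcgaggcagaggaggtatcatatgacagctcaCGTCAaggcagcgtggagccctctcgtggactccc
The Gdf10 window held 35 CG dinucleotides, a number reached by 2.97% of 32851 RefSeq windows of this length (median 6), and 4 GC boxes, a motif present at least once in 32.7% of windows. The Fgf10 window held 8 CG dinucleotides and 1 GC box. The Hgf windows held 4 and 5 CG dinucleotides, near the median of 6, and 44.4% of all windows held 4 or fewer. Both Hgf windows held none of the 4 motifs searched, which also included TATAAA (12.4% of windows) and the AP-1 motif TGANTCA (6.75%). The third Bdnf start, printed because it alone of the 7 held the cAMP response core, had 1 such core, a motif found in 17.8% of windows. The second Bdnf start held 2 GC boxes and 1 AP-1 motif, and the fourth 1 GC box. The genes that were lower thus had windows that differed widely in CG content.

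Total counts were between 51198342 and 68216089 per library. Bap1 stood at 50.5 ± 1.32 CPM (counts per 1000000, TMM-normalised; SD, n = 3) in WT and 40.3 ± 1.74 in Bap1KO, whereas Smn1OE had 49.1 ± 1.4 and Smn1OE_K186R 45.3 ± 3.15. The range of Smn1OE (47.5 to 50) overlapped that of WT (49.7 to 52), although that group was also given 4-OHT. These are counts over the whole gene, and the deleted part is not given in the sources used here, so they do not check the deletion, and the group names below are used as labels. Reads assigned to Smn1 stood at 33.6 ± 1.71 CPM in WT and 32.9 ± 2.31 in Bap1KO, and reached 4760 ± 907 in Smn1OE and 3940 ± 363 in Smn1OE_K186R. Whether they include reads of the human SMN vector was not tested. Principal component 1 held 59% of the variance and set WT (-81.4 to -58.1) and Bap1KO (-60.5 to -14.6) against both SMN groups (41.3 to 76.9). Bap1KO replicate 2, at -14.6, stood nearest to the SMN groups. Xist was at 197 to 305 CPM in WT and Bap1KO and at 0.113 CPM or less in both SMN groups, whereas the Y-linked Eif2s3y was at 0 in the first 6 libraries and at 57.9 to 69.7 CPM in the other 6. Media batch, vector and the sex of the cells therefore all separate the SMN groups from the other groups and cannot be told apart from SMN in any comparison below that crosses them. The 12 FAP markers summed to 14100 to 20500 CPM in WT, 8990 to 15800 in Bap1KO, 3540 to 5430 in Smn1OE and 4230 to 5920 in Smn1OE_K186R, and 11 of 12 were above 1 CPM in WT and Bap1KO against 9 of 12 in each SMN group. Among them Dpp4 was nearly absent, at a mean of 0.168 CPM or less in each group. The sum was mostly 2 collagens, Col1a1 (mean 12700 CPM in WT and 3180 in Smn1OE) and Col3a1 (3630 and 416). The fall was not limited to collagens. Relative to Bap1KO, 8 of the 12 markers were called lower in Smn1OE and 1 higher, Cd34 (edgeR). Over all 16597 genes tested, 33.5% were called in this comparison and 2939 were called lower. Mean Pdgfra went from 90.9 CPM (WT) to 33.8 (Bap1KO) and 18 (Smn1OE). For Ly6a, the gene of the sort marker Sca1, the same means were 888, 718 and 276 CPM. Between Bap1KO and WT, edgeR called 1 marker lower, Pdgfra (log2 -1.43, adjusted p = 0.00398), and 1 higher, Tcf7l2 (0.60). Of all genes, 9.72% were called between these groups. Cd34 went the other way, with a mean of 65.3 CPM for Smn1OE and 60.9 for Smn1OE_K186R against 44.1 for WT and 23.5 for Bap1KO, and Hic1 lay between 50.7 and 58.4. The 5 tenocyte markers summed to 205 to 543 CPM in WT and Bap1KO and to 27.1 to 65.6 in the SMN groups. Fmod made up most of that sum (mean 309 CPM in WT and 19.7 in Smn1OE), while Scx was called higher by edgeR against WT (4.19 CPM) in each other group (8.85 CPM for Bap1KO, 6.78 for Smn1OE, 6.59 for Smn1OE_K186R). The 8 Schwann cell markers summed to 6.89 to 16 CPM, mostly S100b (mean 10.7 in WT), with Sox10 near 0. The 8 myogenic markers summed to 1.69 to 5.04 CPM, mostly Des (3.89 in WT), with Myf5 at 0 in every library. The 6 pericyte markers summed to 66 to 97.1 CPM, mostly Cspg4 (58.9 in WT), and the 6 endothelial markers to 2.58 to 6.41. The 7 macrophage markers summed to 20.5 to 34.3 CPM. In Smn1OE against Bap1KO, edgeR called 2 of these higher (Cd68 and Ptprc) and 2 lower (Csf1r and Lyz2). These were all 4 that passed the count filter, beside 33.5% of all genes called. Ptprc had 1 read in all 3 Bap1KO libraries and 50 in Smn1OE, too few for a firm fold change. The part of these differences in the ligand results was not tested. In bulk RNA, fewer cells of a type and less RNA per cell cannot be told apart.

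On a scale per length (CPM per kilobase of exon), Clcf1 was the most abundant of the 9 transcripts in WT at 20.1 ± 3.43 (SD, n = 3). Bdnf (8.43 ± 3.01), Fgf10 (7.51 ± 1.76), Lif (5.11 ± 0.445) and Hgf (4.82 ± 1.09) followed. The library ranges of Bdnf and Fgf10 overlapped, as did those of Lif and Hgf. Gdnf was lower at 1.70 ± 0.506, Gdf10 stood at 0.505 ± 0.12, Nrg1 at 0.350 ± 0.0707 and Ntf3 at 0.0178 ± 0.0235 per kilobase, and the libraries of Gdf10 and Nrg1 overlapped. In both SMN groups Clcf1 and Bdnf kept the highest means, as in WT. Lif had a higher mean than Fgf10 there, though their libraries overlapped, and Nrg1 a higher mean than Gdf10. Bdnf reached 16.3 ± 2.99 per kilobase in Smn1OE, where its libraries overlapped those of Clcf1 (16.6 ± 2.26). Gdf10 fell to 0.0168 ± 0.00837 in Smn1OE, beside Ntf3 at 0.0175 ± 0.0303. In Smn1OE_K186R Gdf10 stayed above Ntf3 (0.0615 ± 0.0329 against 0.00858 ± 0.00848).

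**Figure D1:**
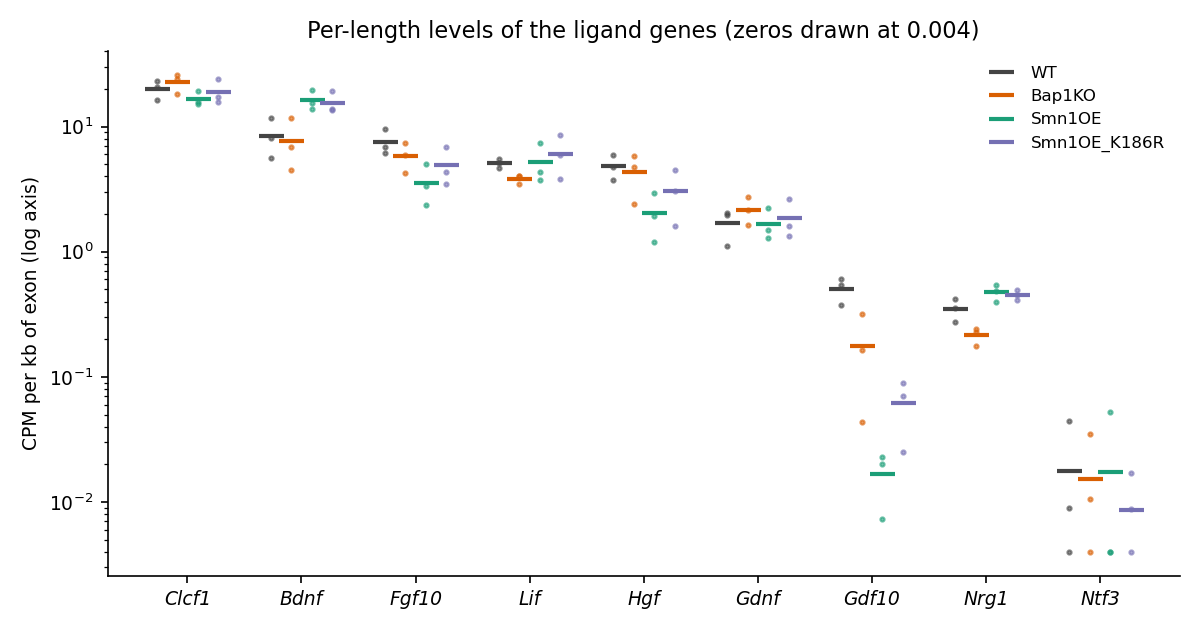
Level per kilobase of exon (log axis) of the 9 ligand genes, ordered by the WT mean; dots are libraries and dashes group means (n = 3), with libraries at 0 drawn at 0.004. Clcf1 leads in all 4 groups, and Gdf10 in Smn1OE (mean 0.0168) lies at the level of Ntf3.

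In the libraries labelled Bap1KO, Nrg1 was lower than in WT, and Lif, Fgf10 and Gdf10 passed the test as well, also lower, when media batch was taken into account. Of the 8 ligand genes tested (Ntf3 did not pass the count filter), 1 was called lower and 0 higher in Bap1KO than in WT (edgeR, adjusted p under 0.05), namely Nrg1. Over all 16597 genes tested, 9.72% were called in this comparison and 6.37% were called lower. The groups did not overlap for 3 of the 8 genes, Nrg1, Lif and Gdf10, all lower in Bap1KO, against 32.3% of all genes in either direction, so this share was near the background. With the media batch as a replicate block, 4 of the 8 genes were called, all lower (Nrg1, Lif, Fgf10 and Gdf10), while 29% of all genes were called and 17.2% were called lower. Without Bap1KO replicate 2, 0 of the 8 genes were called in the unblocked fit. The median log2 fold change of the 8 genes was -0.26, against 0 over all genes.

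Both SMN groups had more Bdnf and Nrg1 RNA than Bap1KO. In Smn1OE against Bap1KO, edgeR called 3 of the 8 genes, Bdnf and Nrg1 higher and Gdf10 lower, while it called 33.5% of all genes. The same 3 genes did not overlap between these groups, as did 48.6% of all genes. A limma-voom fit with media batch as a random effect called 6 of the 8, adding Clcf1, Hgf and Fgf10, all lower, while 33.2% of all genes were called. In Smn1OE_K186R against Bap1KO, 2 of the 8 genes were called, Bdnf and Nrg1, both higher, against 32.6% of all genes, and the same 2 did not overlap, against 43.7%. The edgeR counts were thus near the background in both comparisons. Without Bap1KO replicate 2 they were 4 and 3 of the 8. Both comparisons use the same Bap1KO libraries.

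The groups that differ by the K186R change share media batches, but the main edgeR fit had no batch term. In that unblocked fit no ligand gene was called between Smn1OE_K186R and Smn1OE, and 0% of all genes were. At an unadjusted p under 0.05 there were 388 genes, 1 of them a ligand, Gdf10; DESeq2 called 0 of the 8. Gdf10 was also the 1 ligand gene whose groups did not overlap, against 6.78% of all genes. With the media batch as a replicate block, 1 of the 8 was called, Fgf10, higher in Smn1OE_K186R, against 0.289% of all genes.

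Against WT, which shares no media batch with the SMN groups, Smn1OE had 4 of the 8 genes called by edgeR: Bdnf higher, and Hgf, Fgf10 and Gdf10 lower. There, 50.4% of all genes were called, and 50.1% with media batch as a random effect, where the number of ligands called was also 4. Smn1OE_K186R had 2 of the 8 called against WT, Bdnf higher and Gdf10 lower, with 50.5% of all genes called. The random effect fit called 3, adding Fgf10, lower, and 50.4% of all genes.

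**Figure D2:**
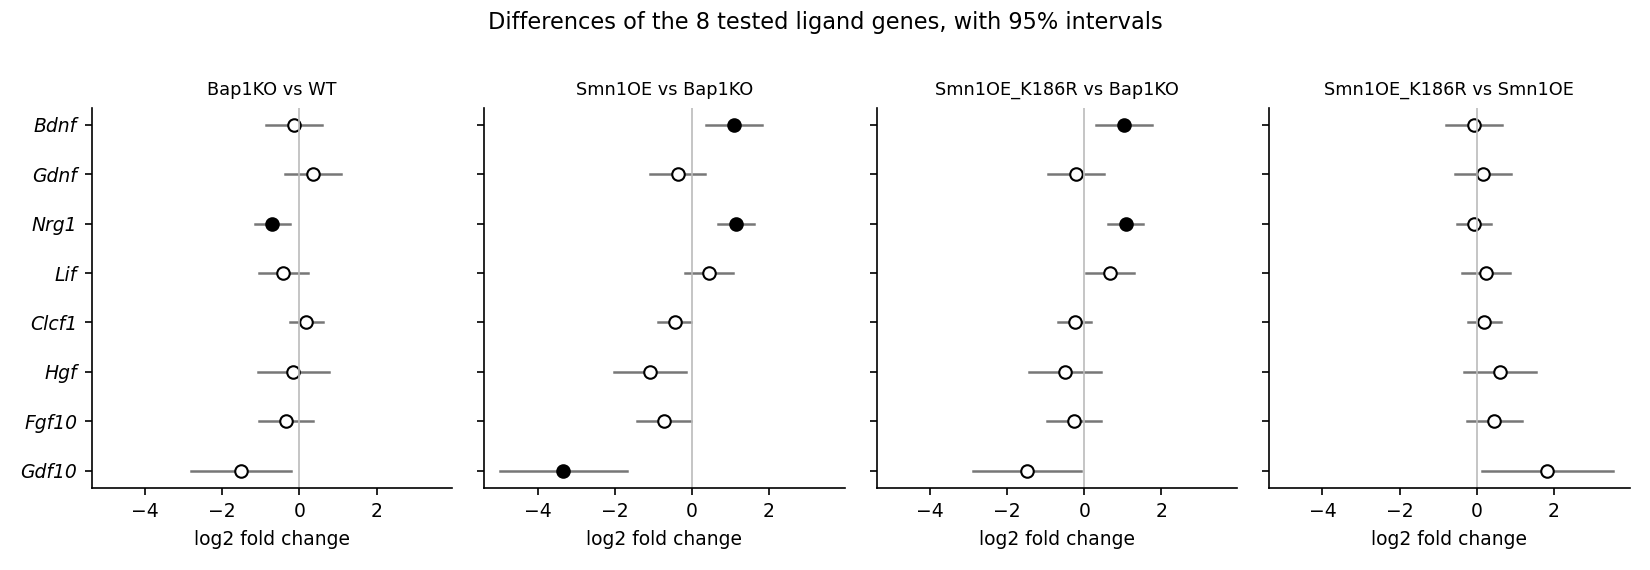
Log2 fold change of the 8 tested ligand genes in 4 comparisons, with 95% intervals derived from edgeR's F statistic and 8 residual degrees of freedom. Filled points have an adjusted p under 0.05 (edgeR). Nrg1 lies at -0.70 in Bap1KO against WT and at 1.14 in Smn1OE against Bap1KO, and Gdf10 reaches -3.33 in the latter.

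Among the neurotrophins, Bdnf was abundant and varied between media batches. Its level was 34.9, 72.1 and 50.2 CPM in WT replicates 1, 2 and 3, and 27.9, 71.9 and 42.7 CPM in Bap1KO. It was 96.6, 85.6 and 122 CPM in Smn1OE and 85.1, 84.6 and 119 CPM in Smn1OE_K186R. Every SMN library was above every WT and Bap1KO library, while WT and Bap1KO overlapped, with batch A lowest and batch B highest in both. The log2 fold change was 1.09 (SE 0.319, adjusted p = 0.0213, edgeR) in Smn1OE against Bap1KO and 1.02 (SE 0.319, adjusted p = 0.0287) in Smn1OE_K186R against Bap1KO. Against WT it was 0.95 (adjusted p = 0.0254, edgeR) and 0.88 (adjusted p = 0.036). Each of these calls was lost when 1 library was left out: without Bap1KO replicate 1 or 3 or the third SMN replicate in the first pair (adjusted p 0.0715 to 0.0767, and 0.0886 to 0.0967, edgeR), and without WT replicate 1 or 3 or the third SMN replicate against WT (0.0669 to 0.103, and 0.0887 to 0.139). Without Bap1KO replicate 2 the log2 fold changes were 1.52 and 1.45. Bap1KO differed from WT by -0.14 (95% interval -0.87 to 0.59), and the 2 SMN groups by -0.07 (-0.80 to 0.65).

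Ntf3, the gene of the other neurotrophin among the 9, was at or near the limit of detection. It had 5, 1 and 0 reads in WT, 4, 0 and 1 in Bap1KO, 6, 0 and 0 in Smn1OE, and 1, 2 and 0 in Smn1OE_K186R. The first replicate held most reads in 3 of the groups, and every group had a library at 0; 3 reads, the number that a count of 0 allows, were worth 0.0436 to 0.0568 CPM. No difference was detectable at this depth, and such floors cover counting error only.

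Gdnf, the survival factor for motor neurons that acts through RET, was moderately expressed. It stood at 4.11, 7.48 and 7.15 CPM in WT, 5.95, 7.85 and 10.0 in Bap1KO, 8.18, 4.73 and 5.51 in Smn1OE and 9.79, 5.86 and 4.89 in Smn1OE_K186R. All 4 groups overlapped. Within media batches, Bap1KO was 1.45, 1.05 and 1.4 times WT, a log2 difference of 0.35 (95% interval -0.38 to 1.07; adjusted p = 0.527, edgeR; 0.0559 with the replicate block). Gdnf was not called in any of the 6 comparisons.

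Nrg1, which encodes the ErbB ligand of Schwann cells, was lowest in Bap1KO. It was at 2.86, 4.32 and 3.68 CPM in WT, and at 2.50, 2.36 and 1.81 CPM in Bap1KO. The Smn1OE libraries held 5.59, 4.07 and 5.05 CPM, and the Smn1OE_K186R libraries 4.24, 5.12 and 4.69 CPM. All 3 Bap1KO libraries lay below all others, whereas the SMN groups overlapped WT. Nrg1 fell by 0.70 on the log2 scale in Bap1KO (SE 0.199, adjusted p = 0.0468, edgeR), and by 0.69 with the replicate block (adjusted p = 0.0147). The Bap1KO to WT ratio within batches A, B and C was 0.875, 0.547 and 0.493. The unblocked call was close to the threshold and was lost without any 1 of the Bap1KO replicates 1, 2 and 3 (adjusted p = 0.0541, 0.0861 and 0.171, edgeR) or WT replicates 2 and 3 (0.158 and 0.108). Nrg1 was 1.14 higher on the log2 scale in Smn1OE than in Bap1KO (SE 0.200, adjusted p = 0.0018, edgeR) and 1.07 higher in Smn1OE_K186R (SE 0.200, adjusted p = 0.00274). These calls held under every alternative run, including without Bap1KO replicate 2 (1.18 and 1.11). Against WT the differences were 0.44 (95% interval -0.01 to 0.89; adjusted p = 0.0806, edgeR) and 0.37 (-0.08 to 0.82; adjusted p = 0.133). The 2 SMN groups differed by -0.07 (-0.52 to 0.38).

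**Figure D3:**
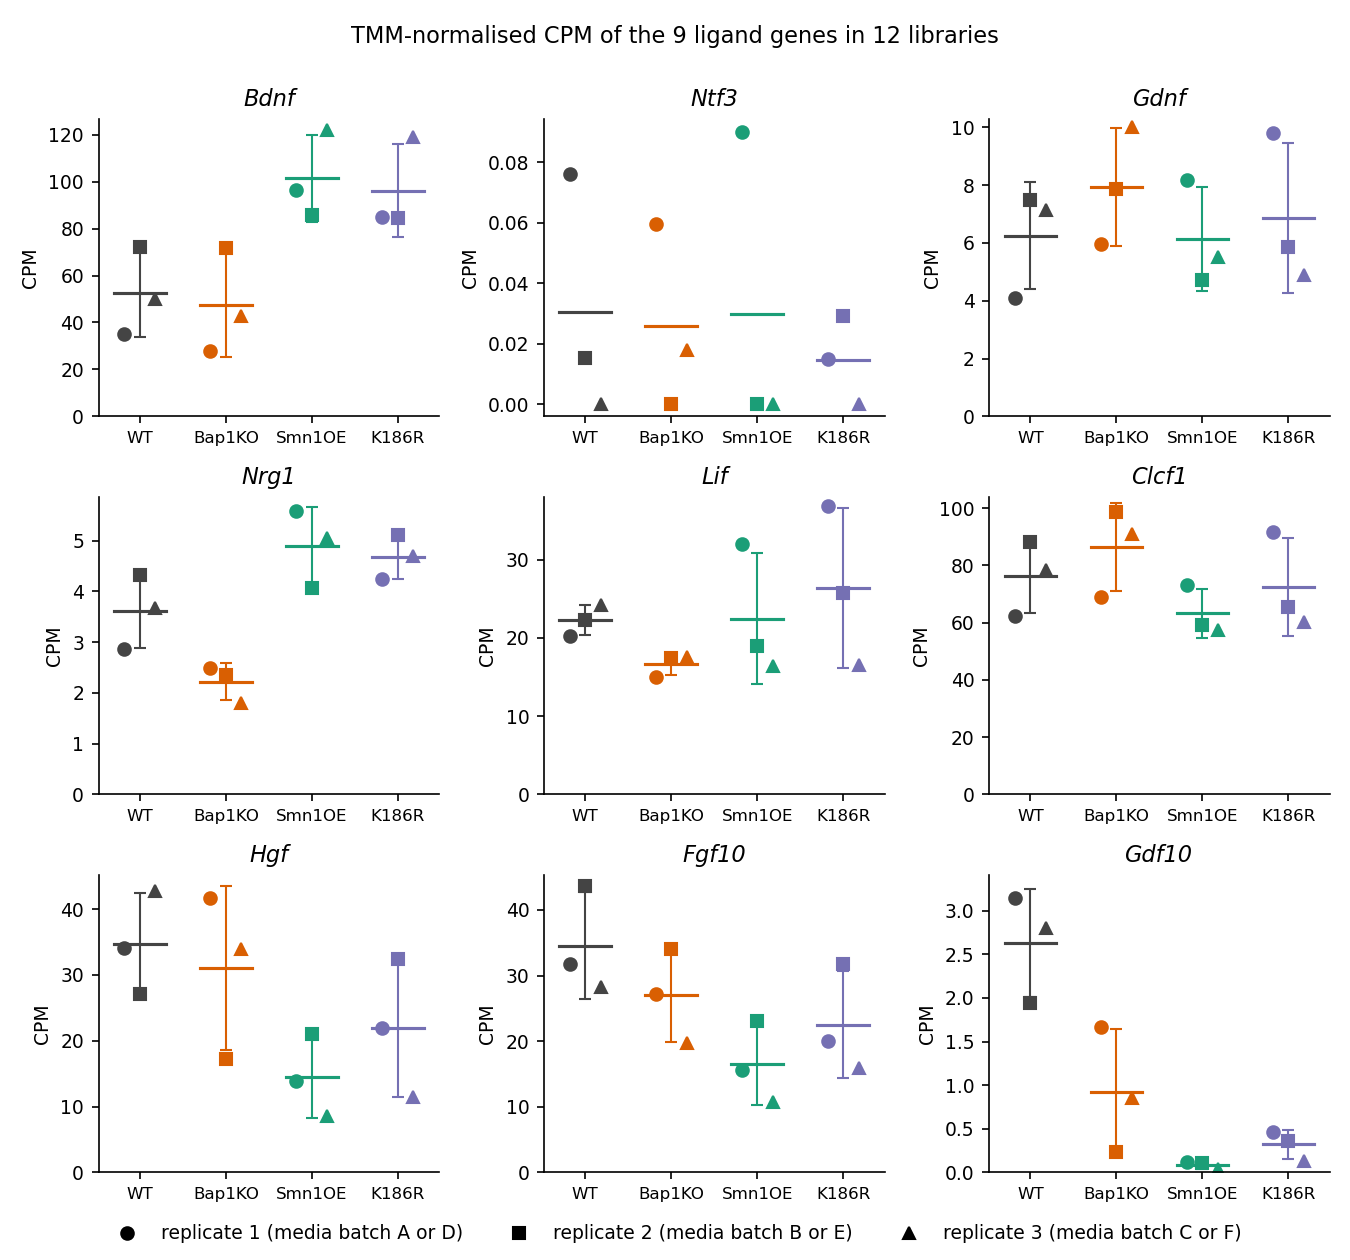
CPM of each ligand gene in all 12 libraries; symbols are replicates, lines group means and bars SD (n = 3; no bar for Ntf3, which had 0 to 6 reads). Bdnf is above 84 CPM in all 6 SMN libraries, Nrg1 is lowest in the 3 Bap1KO libraries, and Gdf10 is under 0.5 CPM in all SMN libraries.

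The interleukin 6 type cytokine Lif, a survival factor for motor neurons, was lower in every Bap1KO library than in every WT library. WT held 20.3, 22.3 and 24.2 CPM and Bap1KO held 15.0, 17.4 and 17.5 CPM. Smn1OE ranged more widely, at 32.0, 19.0 and 16.4 CPM, as did Smn1OE_K186R at 36.9, 25.7 and 16.5 CPM, with batch D highest and batch F lowest in both. The Bap1KO to WT ratio was 0.739, 0.78 and 0.724 in batches A, B and C. The log2 fold change was -0.42 (SE 0.271), with an adjusted p of 0.357 by edgeR across all groups, 0.0479 when only WT and Bap1KO were fitted, and 0.0024 with the replicate block. Smn1OE_K186R was 0.67 above Bap1KO on the log2 scale (adjusted p = 0.0772, edgeR; 0.0387 by DESeq2; 0.0195 without Smn1OE_K186R replicate 3), and Smn1OE was 0.44 above it (adjusted p = 0.235).

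Clcf1, a second cytokine of this type, was the most abundant ligand gene per length in WT. It was at 62.4, 88.3 and 78.5 CPM in WT, 69.1, 98.8 and 90.9 in Bap1KO, 73.2, 59.2 and 57.5 in Smn1OE and 91.8, 65.4 and 60.1 in Smn1OE_K186R. Bap1KO was above WT in all 3 batches, by ratios of 1.11, 1.12 and 1.16, while the groups overlapped (log2 difference 0.18, adjusted p = 0.589, edgeR; 0.053 with the replicate block). Smn1OE was 0.45 below Bap1KO on the log2 scale (95% interval -0.87 to -0.02; adjusted p = 0.0778, edgeR; 0.045 with media batch as a random effect; 0.0422 without Bap1KO replicate 1).

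Hgf, the ligand of Met, was lower in Smn1OE than in WT. WT held 34.1, 27.1 and 42.7 CPM and Bap1KO held 41.7, 17.3 and 34.0 CPM. Smn1OE held 13.9, 21.1 and 8.54 CPM, and Smn1OE_K186R held 21.9, 32.4 and 11.5 CPM. Smn1OE was below WT throughout, whereas Bap1KO replicate 2 lay below the highest Smn1OE library. The log2 fold change was -1.25 in Smn1OE against WT (SE 0.409, adjusted p = 0.023, edgeR), a call lost without Smn1OE replicate 1 or 3 or WT replicate 3 (0.0639, 0.0854 and 0.0755). Against Bap1KO it was -1.09 (SE 0.408, adjusted p = 0.0574, edgeR; 0.0445 with the random effect). Without Bap1KO replicate 2 it was -1.38 (adjusted p = 0.02, edgeR), and without Smn1OE replicate 2 it was -1.46 (0.0306). Smn1OE_K186R was above Smn1OE in each shared batch, by ratios of 1.57, 1.54 and 1.34, but the groups overlapped and the difference was not called (log2 0.59, 95% interval -0.34 to 1.53; adjusted p = 0.132 with the replicate block, edgeR).

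Fgf10, an epithelial growth factor made by mesenchyme, followed the same order of groups. It stood at 31.7, 43.7 and 28.3 CPM in WT, 27.2, 34.1 and 19.7 in Bap1KO, 15.6, 23.0 and 10.8 in Smn1OE and 20.0, 31.7 and 15.9 in Smn1OE_K186R. Smn1OE was below WT in every library, and the other neighbouring groups overlapped. Within each set of batches the order of libraries was the same in both groups, with batches B and E highest. Bap1KO was 0.86, 0.78 and 0.698 times WT in batches A, B and C (log2 -0.36 with the replicate block, adjusted p = 0.00324, edgeR, against 0.502 without it). Smn1OE_K186R was 1.29, 1.38 and 1.47 times Smn1OE in batches D, E and F (0.46 with the block, adjusted p = 0.0304, edgeR, against 0.997 without it). Smn1OE was 1.07 below WT on the log2 scale (-1.07, SE 0.308, adjusted p = 0.0123, edgeR; 0.05 without WT replicate 2). Smn1OE_K186R was at -0.61 against WT (adjusted p = 0.112, edgeR; 0.0386 with the random effect; 0.0295 without Smn1OE_K186R replicate 2). Smn1OE was at -0.72 against Bap1KO (adjusted p = 0.0908, edgeR; 0.043 with the random effect; 0.0312 without Smn1OE replicate 2).

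**Figure D4:**
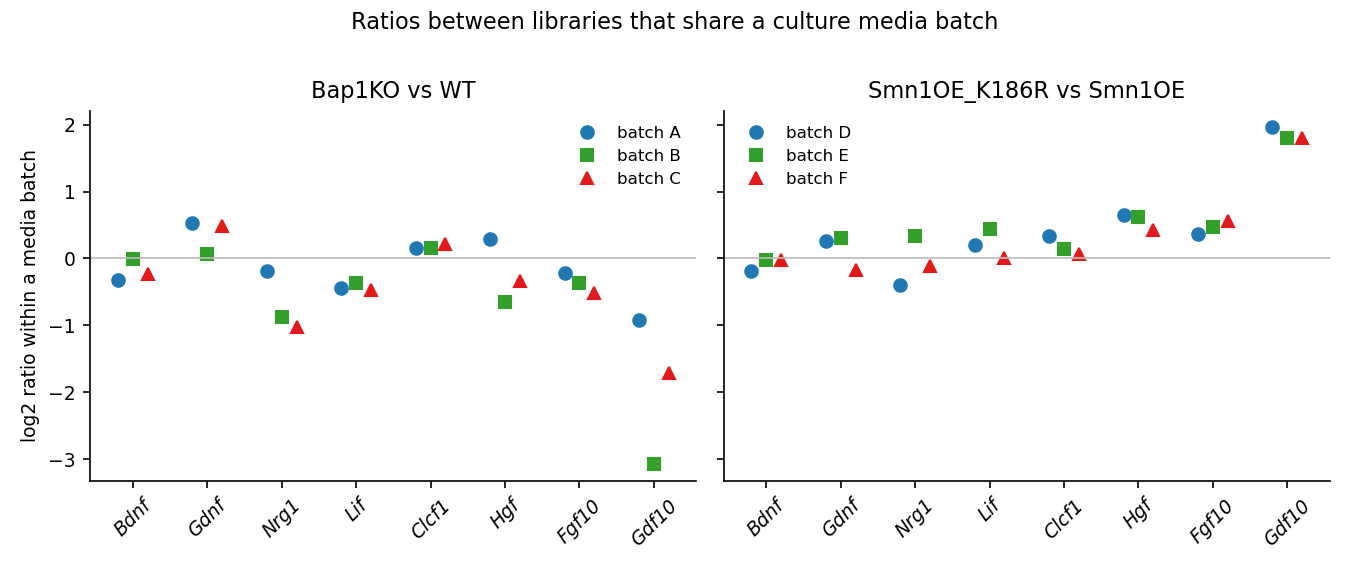
Log2 ratio of each tested ligand gene between libraries of the same media batch, for Bap1KO over WT (batches A to C) and Smn1OE_K186R over Smn1OE (batches D to F). Nrg1, Lif, Fgf10 and Gdf10 are among the genes below 0 in all 3 batches on the left, and Hgf, Fgf10 and Gdf10 among those above 0 in all 3 on the right.

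Gdf10, the TGF-β superfamily member, had the widest range of the 8 tested genes. It stood at 3.15, 1.94 and 2.80 CPM in WT and at 1.67, 0.229 and 0.853 CPM in Bap1KO. The Smn1OE libraries held 0.120, 0.104 and 0.0379 CPM, from 8, 7 and 2 reads, and the Smn1OE_K186R libraries 0.466, 0.363 and 0.132 CPM, from 31, 25 and 7 reads. No Bap1KO library reached the lowest WT library, and no SMN library did so either; Bap1KO replicate 2 lay within the Smn1OE_K186R range. From summed reads, Gdf10 was 2.84-fold lower in Bap1KO than in WT (95% interval 2.38 to 3.39, counting error only). With the spread between libraries the log2 fold change was -1.52 (SE 0.564, adjusted p = 0.11, edgeR), and -1.76 (adjusted p = 0.00156) with the replicate block, the ratios being 0.53, 0.118 and 0.305 in batches A, B and C. DESeq2, which made more false calls than its nominal rate on simulated data, gave an adjusted p of 0.0486. Without Bap1KO replicate 2 the log2 fold change was -1.05 (adjusted p = 0.198, edgeR), and without Bap1KO replicate 1 it was -2.28 (0.0341).

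Gdf10 was lower again in Smn1OE than in Bap1KO, 10.2-fold from summed reads (6.17 to 17.9). All fold intervals in this paragraph cover counting error only, and leave out the spread between libraries. With that spread the log2 fold change was -3.33 (SE 0.708, 95% interval -4.96 to -1.69, adjusted p = 0.00463, edgeR). Without Bap1KO replicate 2 it was -3.79. Gdf10 was 28.9-fold lower in Smn1OE than in WT (17.8 to 49.9, adjusted p = 0.000214, edgeR). In Smn1OE_K186R it was 7.86-fold lower than in WT (6.04 to 10.4, adjusted p = 0.00171, edgeR). These 3 calls held under every alternative run. Smn1OE_K186R was 2.77-fold below Bap1KO (2.07 to 3.76, counting error only). The log2 difference was -1.49 (95% interval -2.89 to -0.09, adjusted p = 0.0777 by edgeR and 0.0398 by DESeq2). Without Bap1KO replicate 2 the log2 difference was -1.96 (adjusted p = 0.0104, edgeR). Smn1OE_K186R was 3.67-fold above Smn1OE (2.12 to 6.69, counting error only), by ratios of 3.89, 3.48 and 3.48 in batches D, E and F. That difference was not called (log2 1.83, 95% interval 0.13 to 3.54; adjusted p = 0.997, edgeR; 0.214 with the replicate block). It rests on 17 reads in Smn1OE and 63 in Smn1OE_K186R.

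The other genes of these pathways were read from lists of related ligands, receptors, processing enzymes and feedback genes, named by function. In Bap1KO against WT, 3 of 26 receptor genes tested were called higher and 4 lower by edgeR, where 9.72% of all genes were called and 6.37% called lower. The BDNF receptor Ntrk2 (log2 1.43), Fgfr3 (0.93) and Bmpr1b (0.67) rose. The GDNF co-receptor Gfra1 (-1.02), the pro-neurotrophin sorting receptor Sort1 (-0.99), Tgfbr1 (-0.88) and Erbb2 (-0.40) fell; Erbb2, the smallest of these changes, was added after its values were seen, to complete the count. Of 12 feedback and response genes, 4 fell and none rose: the receptor kinase feedback genes Spry1 (-0.87), Dusp6 (-0.49) and Spry2 (-0.43) and the ETS factor Etv5 (-0.39). Of 18 related ligands, 1 fell, the gp130 cytokine Ctf1 (-1.68), and 0 of 15 processing genes were called, with 4 at an unadjusted p under 0.05. The list medians were -0.04 for receptors, -0.35 for feedback genes, -0.11 for related ligands and 0.03 for processing genes, beside 0 over all genes. With the media batch as a replicate block, more genes of each list were called: 4 receptors higher and 6 lower, 0 and 7 feedback genes, 5 and 7 related ligands, and 3 and 3 processing genes, where 29% of all genes were called.

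In Smn1OE against Bap1KO, 4 of 26 receptor genes were called higher and 6 lower by edgeR, a share near the 33.5% of all genes called. The HGF receptor Met (log2 0.93) and Sort1 (1.04) rose, and the gp130 gene Il6st (-1.28), Osmr (-1.61), Sorcs2 (-1.71) and Acvr2a (-0.83) fell. In Smn1OE_K186R, where 32.6% of all genes were called, 4 receptor genes rose and 4 fell, with Met at 1.09, Sort1 at 1.06, Il6st at -0.92 and Osmr at -1.06. Among related ligands, 1 rose and 4 fell in Smn1OE, and 2 rose and 5 fell in Smn1OE_K186R. The cytokine Il6 fell most in Smn1OE (-2.54) and also fell in Smn1OE_K186R (-1.89), while Il11 rose (0.86 and 0.85). Nrtn, which encodes a relative of GDNF, fell in Smn1OE_K186R (-2.09), where it had 5 to 8 reads per library against 23 to 32 in Bap1KO. Feedback genes were called in both directions, 5 higher and 3 lower in each SMN group, with Etv4 (1.15), Spry4 (1.11) and Dusp6 (0.93) higher in Smn1OE, and the gp130 response gene Socs3 (-1.58), Spry1 (-1.08) and Id3 (-0.72) lower. Of 15 processing genes, 3 rose and 3 fell in each SMN group, also near the share of all genes. The HGF-activating protease gene St14 (1.94) was among those that rose in Smn1OE, as was Hgfac, from 6 reads in all 3 Bap1KO libraries to 60 in Smn1OE, too few for a firm fold change, and tissue plasminogen activator Plat (-1.52) among those that fell. In Smn1OE against Bap1KO the list medians were -0.11 for receptors, -0.43 for related ligands, 0.07 for feedback genes and 0 for processing genes, beside -0.01 over all genes.

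**Figure D5:**
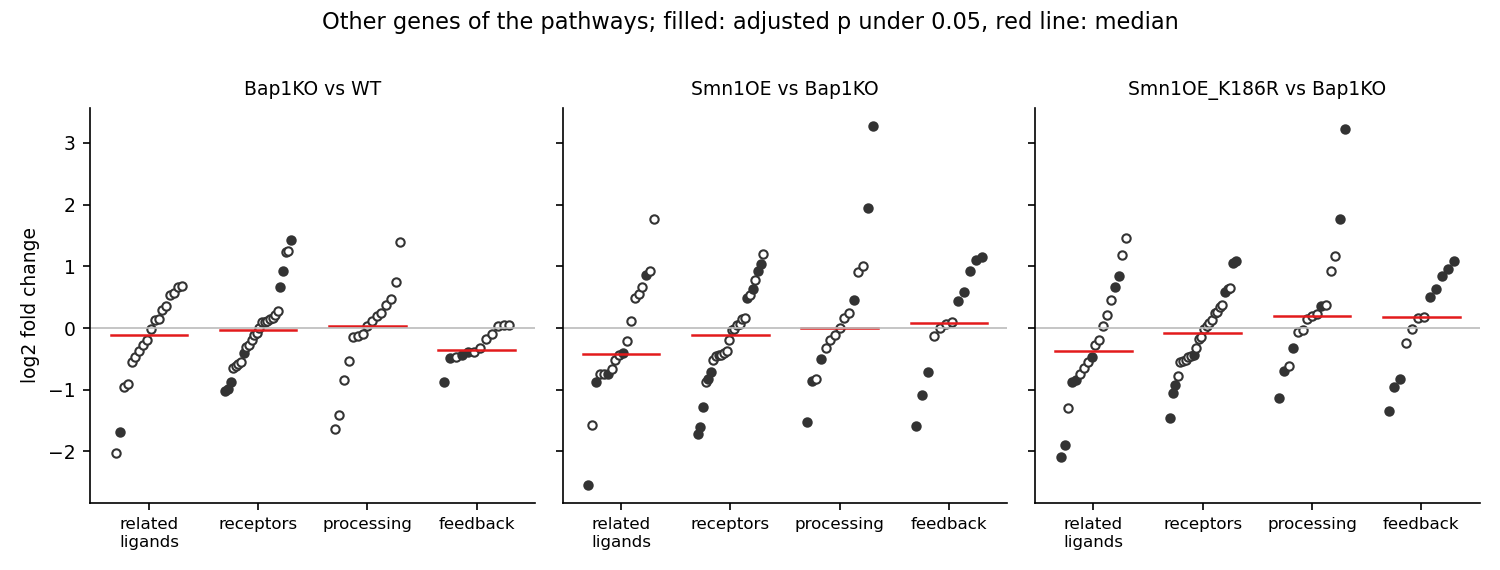
Log2 fold change of each tested gene of the related ligand, receptor, processing and feedback lists in 3 comparisons; filled points have an adjusted p under 0.05 (edgeR) and red lines are list medians. In Bap1KO against WT the feedback genes have a median of -0.35, and in both SMN groups the lists spread to both sides of 0.

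Over the 12 libraries, the ligand genes fell into a few patterns of log2 CPM, given as a description because the libraries share groups and batches. Hgf followed Gdf10 (Pearson r = 0.87) and Fgf10 (0.70), and Gdnf followed Clcf1 (0.86). Bdnf ran with Nrg1 (0.76) and opposite to Hgf (-0.83) and Gdf10 (-0.82). Among all other genes, the nearest to Bdnf were Cobl (0.991) and Cpe (0.986), to Hgf Fam168a (0.986) and Shox2 (0.981), to Gdf10 Ctso (0.980) and Ick (0.978), and to Nrg1 Arhgap39 (0.957) and Dennd2a (0.937). Fgf10 was nearest to Tspan33 (0.930) and Unc5c (0.919), and Lif to Acss2 (0.919) and Icam1 (0.892). Clcf1 was nearest to Pgpep1l (0.909) and Parm1 (0.907), and Gdnf to Tns4 (0.898). For Gdf10, 734 genes had an r above 0.9, and for Bdnf 311, whereas for Gdnf there were 0 and for Lif 1.

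Exons of Hgf overlap those of Gm43489 on the same strand, and exons of Fgf10 and Bdnf overlap Gm16263 and Gm45346 on the opposite strand. These neighbours had 1278, 547 and 64 reads in all 12 libraries. Exons of Nrg1 and Clcf1 also overlap another gene model, but the one at Nrg1, Gm26578, was not among the gene rows counted. Whether counting used strand is not given in the sources used here, so reads in the overlaps may be missing or misplaced for Hgf, Fgf10, Bdnf and Clcf1.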

How the data were processed

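Per the submitters' processing notes, the authors' tools included STAR 2.6.1 and HTSeq 0.9.1, with DESeq2, cutadapt 1.4.2 and CASAVA 1.8.2 and genome build GRCm39; the annotation release and strand setting are not given in the sources used here. The authors deposited raw read counts per gene for 12 libraries. The 5 closing summary entries that name no gene (11.11% to 14.56% of records) were left out. Symbols and exon lengths came from GENCODE M21 (GRCm38) by gene ID, promoters from RefSeq.

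All genes were fitted with edgeR 4.0.16 (quasi-likelihood test, TMM, filterByExpr with a minimum count of 10; 16597 genes, 8 residual degrees of freedom, Benjamini-Hochberg over all genes, threshold 0.05). CPM uses TMM-scaled library sizes. Alternatives were DESeq2 1.42.0, its size factors in edgeR, other count filters, only the 2 groups compared, each replicate left out, the media batch as replicate block (4 residual degrees of freedom) and, across batches, limma 3.58.1 voom with batch as a random effect (correlation 0.45). The labels give the shared media batch, which pairs replicate numbers: deviations from group means correlated at 0.24 to 0.43 within a batch and -0.35 to 0.3 between batches. The fits were tested on a single draw of simulated data of Bap1KO against WT. There DESeq2 made more false calls than its nominal rate and edgeR and voom did not. DESeq2 values just under the threshold therefore carry less weight. The simulation gave all genes the same dispersion and had no media batch effect. It thus cannot show how the block and random effect fits behave where batches differ. The 9 genes and the gene lists were chosen with earlier results of these data known; list genes that passed the test were named in order of the size of their log2 fold change, up to 6 of each list and comparison, and only some of these are printed.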

Additional observations from a re-analysis of the deposited data

How the results depend on the processing

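The number of ligand genes called out of 8 moved by more than 1.5 times in these fits. In Bap1KO against WT (1 called), it was 0 with DESeq2 size factors in edgeR, 2 by DESeq2, 4 with the replicate block, and 0 to 1 with a replicate left out. In Smn1OE against Bap1KO (3 called), it was 6 without a count filter, 6 with media batch as a random effect, and 2 to 5 with a replicate left out. In Smn1OE_K186R against Bap1KO (2 called), it was 4 by DESeq2, 4 without a count filter, and 1 to 3 with a replicate left out. In Smn1OE_K186R against Smn1OE (0 called), it was 1 with the replicate block and 0 with a replicate left out. In Smn1OE against WT (4 called), it was 2 to 5 with a replicate left out, and in Smn1OE_K186R against WT (2 called) 4 without a count filter and 1 to 3 with a replicate left out. The cause was not tested. The Nrg1 call in Bap1KO was also lost with DESeq2 size factors (adjusted p = 0.0504, edgeR), without a count filter (0.0575) and with only the 2 groups fitted (0.0837). No ligand gene called in the unblocked fit changed direction in any alternative run. With the replicate block, calls changed for Lif, Fgf10 and Gdf10 in Bap1KO against WT and for Fgf10 in Smn1OE_K186R against Smn1OE, and for no other ligand gene. Depth limits Ntf3 throughout, Gdf10 in the SMN groups, and Hgfac, Nrtn and Ptprc among the other genes.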
